A study of Mus musculus with 4 samples.

Results

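Genes for suppressive cytokines and for factors of regulatory T cells were read in 4 RNA-seq libraries of mouse double-negative T cells. The set has 8 genes: the soluble suppressors Il10, Ebi3, Tgfb1 and Fgl2, the TGF-beta activation genes Lrrc32 and Itgb8, and the transcription factors Foxp3 and Ikzf4. They were taken by symbol, without using measured values, and all 8 had a row among the 24768 genes of the table. Of the groups compared, Tbx21-KO cDNT cells and WT cDNT cells had 2 libraries each, and all were labelled T cells. The labels call the first group a knockout whereas the design text speaks of a knockdown, and the label is used here. Not given in the sources used here are the meaning of the letter c in cDNT, the strain, the age, the way the gene was disrupted and whether the libraries came from separate animals. The title of the series asks about the role of T-bet, the transcription factor that Tbx21 encodes, in how such cells regulate immunity.

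Regulatory T cells restrain other immune cells partly through secreted proteins. IL-10 damps antigen-presenting cells, and EBI3 is a shared chain that forms IL-27 with the product of Il27 and IL-35 with the product of Il12a. TGF-beta is made in a latent form that the protein GARP, encoded by Lrrc32, holds on the cell surface and that integrins with the beta-8 chain, encoded by Itgb8, can activate. FGL2 is a secreted fibrinogen-like protein that binds Fc gamma receptors, Foxp3 is the lineage factor of classical regulatory T cells, and Ikzf4 encodes Eos, a zinc finger partner of Foxp3. Double-negative T cells lack the CD4 and CD8 coreceptors, and some of them are suppressive.

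Among the 8 genes, Ebi3, Tgfb1 and Ikzf4 rose in Tbx21-KO and Fgl2 and Il10 fell. Lrrc32 was not called, and Foxp3 and Itgb8 were too low to be tested. The largest change was the rise of Ebi3, 6.53-fold. Fgl2, the most abundant of the 8 in WT cells, fell to 47.1% of its WT mean. Values are FPKM, which divide a gene's fragments by its length and by the size of the library. They were tested with limma as log2(FPKM + 1) in the 11013 genes with a mean of at least 1 FPKM, and a gene is called at a Benjamini-Hochberg adjusted p under 0.05 over all of these. Fold changes on this scale, Tbx21-KO minus WT, understate the change of low genes. Over all genes tested, 53.1% were called, 30.1% higher and 23.0% lower, so 5 calls among the 6 members that passed the filter are to be read against a background in which about every other gene was called. All 6 also had a WT mean of at least 1 FPKM, so none of them passed only through the Tbx21-KO libraries.

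The libraries imply totals of 23335050 to 24964030 reads. Tbx21 was at 2.29 and 2.41 FPKM in Tbx21-KO 1 and 2, against 13.2 and 11.7 FPKM in WT 1 and 2 (log2 fold change -2.01, limma adjusted p = 8.21e-05). All 17 genes with a row of the T cell receptor complex list were at 1 FPKM or more in every library, and their summed level was 1518 and 1550 FPKM in Tbx21-KO, against 2127 and 2233 FPKM in WT. Of the coreceptor genes, Cd4 was at 2.01 and 2.02 FPKM in Tbx21-KO and 1.74 and 1.84 FPKM in WT, and Cd8a is not analysed here. The summed marker lists of other cells were higher in both Tbx21-KO libraries, though not every marker was. The 14 granulocyte and mast cell markers summed to 10546 and 10853 FPKM in Tbx21-KO, against 13.3 and 16.8 FPKM in WT. All 6 with a WT mean of at least 1 FPKM were called higher, while the other 8 passed the filter only through the Tbx21-KO libraries and so had to differ. No marker of that list was at 0 in both WT libraries. The 9 macrophage and monocyte markers with a row summed to 302.7 and 325.2 FPKM in Tbx21-KO and 35.3 and 37.2 FPKM in WT. Lyz2 alone was at 197.8 and 216.2 FPKM in Tbx21-KO, and Ccr2 alone was at 19.7 and 18.7 FPKM in WT. Ms4a7 and Mrc1 were at 0.131 FPKM or less in every library, and the groups overlapped in Ms4a7. Csf1r, also too low to be tested, was at 1.86 and 1.70 FPKM in Tbx21-KO and 0.172 and 0.136 FPKM in WT. Of the 6 tested, all 4 with a WT mean of at least 1 FPKM were higher, and the other 2 passed only through the Tbx21-KO libraries. The 11 dendritic cell markers summed to 113.4 and 120.0 FPKM in Tbx21-KO and 40.2 and 44.5 FPKM in WT, with Clec9a at 0 in both WT libraries. Of 7 tested, 4 were higher, namely Batf3 and the MHC class II genes H2-Aa, H2-Eb1 and Cd74. Itgax (1.06 and 1.38 FPKM in Tbx21-KO, 1.45 and 1.71 FPKM in WT) went the other way without a call. So did Xcr1, at 1.01 and 0.962 FPKM in Tbx21-KO and 1.32 and 1.54 FPKM in WT. The 7 B cell markers summed to 92.4 and 89.3 FPKM in Tbx21-KO and 40.7 and 42.3 FPKM in WT, and all 3 tested were higher. The 5 megakaryocyte and platelet markers summed to 9.82 and 10.1 FPKM in Tbx21-KO and 1.22 and 1.79 FPKM in WT, and both tested passed only through the Tbx21-KO libraries. The 4 CD4 and CD8 lineage genes with a row summed to 29.3 and 25.8 FPKM in Tbx21-KO and 10.1 and 11.2 FPKM in WT. Of these, Zbtb7b and Cd40lg were higher. The coreceptor genes Cd4 and Cd8b1 were not called, and Cd8b1 overlapped, at 2.95 and 2.89 FPKM in Tbx21-KO and 1.94 and 2.93 FPKM in WT. These counts of higher genes in the marker lists stand beside 30.1% higher over all genes tested. In the fit of the 10395 genes with a WT mean of at least 1 FPKM, 2647 were higher. Myeloid cells can express Il10, Ebi3, Tgfb1 and Fgl2 too, and the part of these other cells in the results that follow was not tested. In bulk RNA, fewer cells of a type and less RNA per cell cannot be told apart.

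**Figure D1:**
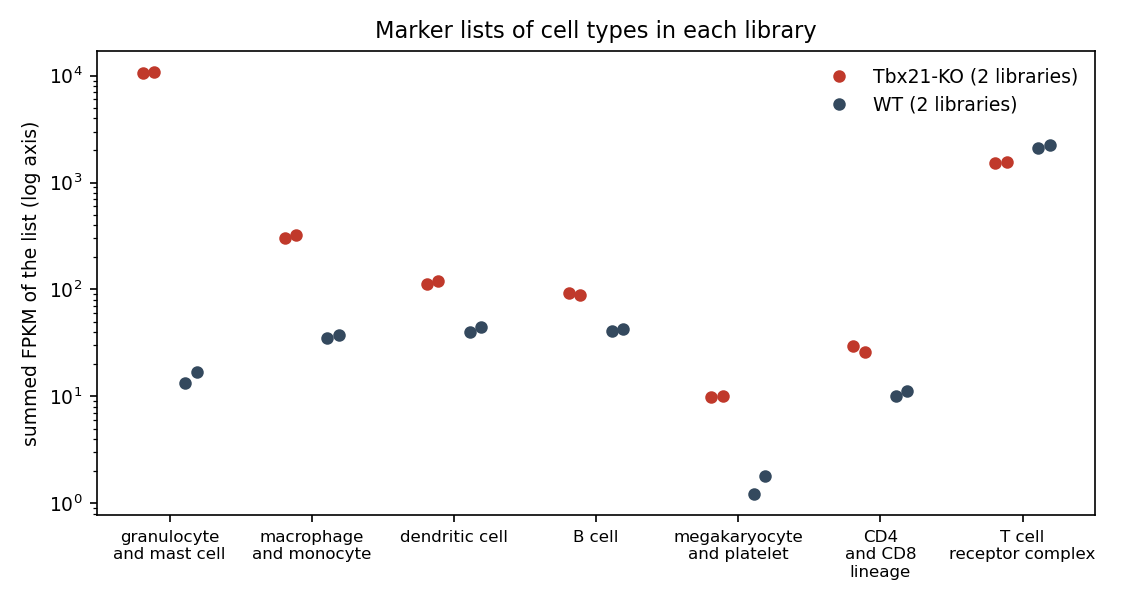
Summed FPKM (log axis) of the marker list of each cell type, 1 point per library, Tbx21-KO in red on the left and WT in dark blue on the right. The granulocyte and mast cell list lies at 10546 and 10853 FPKM in Tbx21-KO and 13.3 and 16.8 FPKM in WT, and the T cell receptor complex list is lower in Tbx21-KO.

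The start regions of Ebi3 and Fgl2 are shown because these genes had the largest rise and the largest fall. Both windows come from RefSeq (GRCm38.p6, plus strand) and run from 250 bases before to 50 after the annotated start, Ebi3 at chr17:55952373-55952672 and Fgl2 at chr5:21372423-21372722. In Ebi3 the capitals mark the 1 match to GGGNNTTCC, letters of kappaB type, which ends 36 bases before the RefSeq start. In Fgl2 they mark the 1 match to TGANTCA, an AP-1 motif, which ends 10 bases before the RefSeq start. The GENCODE gene starts used below differ, at 55952640 for Ebi3 and 21372642 for Fgl2. Against the GENCODE start the Fgl2 match lies inside the gene, not before it.
Ebi3: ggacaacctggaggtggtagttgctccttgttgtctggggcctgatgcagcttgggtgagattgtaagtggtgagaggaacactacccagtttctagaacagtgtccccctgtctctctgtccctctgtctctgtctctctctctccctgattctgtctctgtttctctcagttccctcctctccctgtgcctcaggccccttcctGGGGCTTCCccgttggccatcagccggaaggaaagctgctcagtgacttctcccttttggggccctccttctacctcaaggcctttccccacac
Fgl2: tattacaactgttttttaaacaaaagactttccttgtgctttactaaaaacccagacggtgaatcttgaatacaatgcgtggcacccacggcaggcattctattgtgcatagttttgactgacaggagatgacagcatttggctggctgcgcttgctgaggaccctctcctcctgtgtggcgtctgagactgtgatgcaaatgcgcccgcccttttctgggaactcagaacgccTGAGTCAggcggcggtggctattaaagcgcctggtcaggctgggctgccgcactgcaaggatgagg
Both motifs were chosen after the windows were read, and both strands were searched. Among all 32851 windows of this length, 5.82% hold GGGNNTTCC and 7.81% hold TGANTCA. The T-box half-site AGGTGTGA occurs in 1.275% of all windows and its core GGTGTG in 19.05%. Neither was found in the 6 windows of the 5 members that the RefSeq table holds (Fgl2, Tgfb1, Itgb8, Ebi3 and Foxp3), which says only that these letters are absent from these stretches.

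Ebi3 (ENSMUSG00000003206, a protein-coding gene on GRCm38 chromosome 17 from 55952640 to 55957022) was at 19.1 and 15.6 FPKM in Tbx21-KO 1 and 2, and at 2.29 and 3.01 FPKM in WT 1 and 2. Both Tbx21-KO libraries lay far above both WT libraries, and the gap was larger than the spread within either group. These levels rest on 514 and 432 reads in Tbx21-KO and on 66 and 84 reads in WT. The log2 fold change was 2.33, with an SE of 0.14 (limma adjusted p = 0.000287). An antisense gene, Gm16712, shares 270 exon bases with Ebi3, 23.4% of its exon length, and was itself at 1.88 and 1.95 FPKM in Tbx21-KO and 0.225 and 0.190 FPKM in WT. Without knowledge of the strand setting, reads in the shared stretch cannot be assigned to one of the pair.

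EBI3 works in pairs with a partner chain, and both partner genes were low. Il27, which encodes the p28 chain of IL-27, was at 2.18 and 2.53 FPKM in Tbx21-KO and 0.706 and 0.528 FPKM in WT (log2 fold change 1.05, SE 0.11, limma adjusted p = 0.00183). Il12a, which encodes the p35 chain of IL-35 and of IL-12, was at 2.32 and 2.30 FPKM in Tbx21-KO and 0.212 and 0.0487 FPKM in WT, where it had 9 and 2 reads (log2 fold change 1.55, SE 0.12, limma adjusted p = 0.000649). Both partner genes were higher in every Tbx21-KO library than in any WT library, but both passed the filter only through the Tbx21-KO libraries and so had to differ. Ebi3 exceeded Il27 by a factor of 8.74 and 6.16 in Tbx21-KO and of 3.25 and 5.71 in WT, as a ratio of FPKM per library. Over Il12a the ratio ran the other way, at 8.23 and 6.77 in Tbx21-KO and 10.8 and 61.8 in WT, where it rests on the few WT reads of Il12a.

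The receptors of these cytokines moved both ways. Il27ra, the specific chain of the IL-27 receptor, was at 27.0 and 27.6 FPKM in Tbx21-KO and 16.8 and 15.7 FPKM in WT, and rose by a log2 fold change of 0.71. Il6st, which encodes the shared chain gp130, was at 1.12 and 1.30 FPKM in Tbx21-KO and 1.91 and 2.10 FPKM in WT, and fell by 0.44 on the log2 scale. That call was lost without Tbx21-KO 1 (log2 fold change -0.38), without WT 2 (-0.40), with no filter and after the libraries were rescaled to an equal level of the T cell receptor complex list (-0.16), called T cell gene scaling in what follows. Il12rb2, a chain of the receptors for IL-12 and IL-35, fell to 29.0% of its WT mean, at 18.4 and 18.1 FPKM in Tbx21-KO and 62.1 and 63.8 FPKM in WT. The list of the other IL-12 family genes had 8 genes with a row and 7 tested, of which Il12a and Il27 passed only through the Tbx21-KO libraries. Of the 5 with a WT mean of at least 1 FPKM, 2 rose and 2 fell while 1 was not called, beside 53.1% called over all genes. That share includes genes that passed only through the Tbx21-KO libraries. In the fit of the 10395 genes with a WT mean of at least 1 FPKM, 2647 were higher and 2544 lower. The largest rise in the list of IL-12 family genes was that of Il23r, a chain of the IL-23 receptor, with a log2 fold change of 2.35. These genes were read in the same libraries in which the granulocyte and mast cell list summed to 10546 and 10853 FPKM.

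Fgl2 (ENSMUSG00000039899, a protein-coding gene on GRCm38 chromosome 5 from 21372642 to 21378374) was at 103 and 110 FPKM in Tbx21-KO 1 and 2, against 243 and 208 FPKM in WT 1 and 2. Both Tbx21-KO libraries were about equal and lay well under both WT libraries, which differed more among themselves. The mean was 106.2 ± 5.16 FPKM in Tbx21-KO and 225.5 ± 25.0 FPKM in WT (SD, n = 2 each), a change of -1.08 on the log2 scale (SE 0.09; limma adjusted p = 0.000702). The gene lies inside Ccdc146 on the other strand, with no shared exon bases, and Ccdc146 was at 0.257 FPKM or less in every library. With the T cell gene scaling the log2 fold change of Fgl2 was -0.62, still called.

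The receptors that FGL2 binds went the other way. Fcgr2b, the inhibitory Fc gamma receptor, was at 9.63 and 9.34 FPKM in Tbx21-KO and 0.159 and 0.20 FPKM in WT, a change of 3.15 on the log2 scale (SE 0.07; limma adjusted p = 2.36e-05). It passed the filter only through the Tbx21-KO libraries. Fcgr3, an activating Fc gamma receptor, was at 47.4 and 48.8 FPKM in Tbx21-KO and 9.60 and 11.5 FPKM in WT, a log2 fold change of 2.09. Both genes are also expressed by myeloid cells, whose summed marker lists were higher in the same libraries. For the macrophage and monocyte list the sums were 302.7 and 325.2 FPKM in Tbx21-KO and 35.3 and 37.2 FPKM in WT. Lyz2 alone made up 197.8 and 216.2 FPKM of the Tbx21-KO sums. The part of myeloid cells in the rise of Fcgr2b and Fcgr3 was not tested.

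Il10 (ENSMUSG00000016529, a protein-coding gene on GRCm38 chromosome 1 from 131019845 to 131024974) was at 4.64 and 6.29 FPKM in Tbx21-KO 1 and 2, against 8.71 and 9.81 FPKM in WT 1 and 2. Both Tbx21-KO libraries were under both WT libraries, although the difference between the 2 Tbx21-KO libraries was a sizeable part of the gap. The reads behind these values were 142 and 198 in Tbx21-KO and 285 and 310 in WT. The log2 fold change was -0.68, with an SE of 0.14 (limma adjusted p = 0.0136). T cell gene scaling gave -0.27 and no call (limma adjusted p = 0.107), and neither did the fit with no filter on low genes call it (adjusted p = 0.0589). That scaling raised the median log2 fold change of all genes by 0.40. Relative to the median of all genes Il10 was at -0.71 both with the values as deposited and with the rescaled ones. The balance of Ebi3 and Il10 was opposite in the 2 groups: Ebi3 was 4.11 and 2.48 times Il10 in Tbx21-KO and 0.263 and 0.307 times Il10 in WT.

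Of 9 transcription factor genes linked to the control of Il10 in T cells, not all of them as inducers, 5 rose and 2 fell, while 2 were not called. They had a median log2 fold change of 0.45, against 0.04 over all genes tested, of which 30.1% were higher and 23.0% lower. Maf, which encodes c-MAF, was at 17.9 and 17.1 FPKM in Tbx21-KO and 2.91 and 2.80 FPKM in WT, a change of 2.26 on the log2 scale (SE 0.05; limma adjusted p = 2.49e-05). Irf4 and Prdm1, which encodes Blimp-1, both rose by a log2 fold change of 0.69. Ahr, the aryl hydrocarbon receptor, fell by 0.41 on the log2 scale, a call lost with the T cell gene scaling (log2 fold change -0.028). The log2 fold change of Stat4 was -0.22. Its call was lost in 8 alternatives, among them the fits without Tbx21-KO 1 (-0.14), without WT 1 (-0.20) and without WT 2 (-0.24), and its direction turned with the T cell gene scaling (0.21). With the T cell gene scaling 8 of the 9 factors were higher, beside 72.6% of all genes.

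Downstream of IL-10, 3 of 6 tested signalling genes rose and 2 fell, while 1 was not called, beside 53.1% called over all genes. They had a median log2 fold change of 0.07. With the T cell gene scaling 5 of the 6 were higher and 0 lower, beside 72.6% higher and 4.75% lower over all genes. Stat3, 1 of the 2 that fell (log2 fold change -0.15), lost its call with no variance trend. It was called higher with the T cell gene scaling (0.30). Socs3, a feedback inhibitor induced through STAT3, was at 42.0 and 39.7 FPKM in Tbx21-KO and 19.4 and 17.5 FPKM in WT, a log2 fold change of 1.11. Bcl3 rose by 0.38. Il10ra, the ligand-binding receptor chain, was at 12.7 and 13.2 FPKM in Tbx21-KO and 15.3 and 13.9 FPKM in WT and was not called (log2 fold change -0.16, limma adjusted p = 0.0866). This outcome depended on the fit. Il10ra was called lower with median-of-ratios scaling (-0.26), quantile normalization (-0.22) and voom (-0.17). With the T cell gene scaling it was called higher (0.27). Il10rb, the second chain, fell by 0.27, a call lost without Tbx21-KO 2 (log2 fold change -0.24) and without WT 1 (-0.27), and its direction turned with the T cell gene scaling (0.12).

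Tgfb1 (ENSMUSG00000002603, a protein-coding gene on GRCm38 chromosome 7 from 25687002 to 25705077) was at 107.4 and 103.8 FPKM in Tbx21-KO 1 and 2, and at 89.2 and 87.9 FPKM in WT 1 and 2. The groups did not overlap, and the step between them was small. The mean was 105.6 ± 2.53 FPKM in Tbx21-KO and 88.5 ± 0.91 FPKM in WT (SD, n = 2 each), a change of 0.25 on the log2 scale (SE 0.04; limma adjusted p = 0.00505). The values rest on 12637 and 12582 reads in Tbx21-KO and 11226 and 10692 reads in WT. The size depended on scaling, from 0.14 with median-of-ratios scaling to 0.71 with the T cell gene scaling, and it was called in each.

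Lrrc32 (ENSMUSG00000090958, a protein-coding gene on GRCm38 chromosome 7 from 98489283 to 98502181), which encodes GARP, was at 7.37 and 8.20 FPKM in Tbx21-KO 1 and 2, and at 7.48 and 7.13 FPKM in WT 1 and 2. The groups overlapped, and the log2 fold change was 0.08 (SE 0.07, limma adjusted p = 0.373). With the T cell gene scaling it was called higher (0.49, adjusted p = 0.00239), which made 4 of the 6 tested members higher and 1 lower. Under that scaling 77.3% of all tested genes were called, 72.6% higher and 4.75% lower. Platelet precursors express Lrrc32 too. Of the 5 megakaryocyte and platelet markers, Ppbp at 4.07 and 4.26 FPKM and Itga2b at 4.01 and 3.56 FPKM exceeded 1 FPKM in both Tbx21-KO libraries, and none reached it in both WT libraries. Their part in the Lrrc32 level was not tested.

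Itgb8 (ENSMUSG00000025321, a protein-coding gene on GRCm38 chromosome 12 from 119158022 to 119238802) was close to absent. It was at 0.0232 and 0.0113 FPKM in Tbx21-KO 1 and 2 and at 0.0181 and 0.00375 FPKM in WT 1 and 2, which corresponds to 6 and 3 reads in Tbx21-KO and 5 and 1 reads in WT. The groups overlapped. Summed over a group, 9 reads in Tbx21-KO have an exact 95% Poisson interval of 4.12 to 17.1 reads and 6 reads in WT one of 2.20 to 13.1 reads. These intervals cover counting error only, and a difference was not detectable at this depth.

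Among other genes of TGF-beta latency and activation, 8 had a row and 4 were tested. Of these, 3 rose and 1 was not called, beside 30.1% higher and 23.0% lower over all genes. Thbs1, which encodes thrombospondin 1, an activator of latent TGF-beta, was at 324.2 and 301.2 FPKM in Tbx21-KO and 1.99 and 2.32 FPKM in WT. This is a 145.0-fold difference (log2 fold change 6.64, SE 0.07, limma adjusted p = 3.99e-06). Myeloid cells and platelets express Thbs1 as well, and the part of the marker lists above in this rise was not tested. Ltbp3, a latent TGF-beta binding protein, rose by 0.63 on the log2 scale. Nrros, which tethers latent TGF-beta on myeloid cells, rose by 0.35, a call lost without Tbx21-KO 1 (log2 fold change 0.30), without Tbx21-KO 2 (0.39), with no filter and with median-of-ratios scaling (0.24). Itgav and Furin are not analysed here.

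Of 12 TGF-beta receptors and SMAD pathway genes, 2 rose and 6 fell, while 4 were not called, beside 30.1% higher and 23.0% lower over all genes. They had a median log2 fold change of -0.12. Tgfbr2, the ligand-binding receptor, was at 29.2 and 30.4 FPKM in Tbx21-KO and 47.4 and 44.8 FPKM in WT, a change of -0.61 on the log2 scale (SE 0.05; limma adjusted p = 0.000641). Tgfbr1, its signalling partner, was at 2.66 and 2.83 FPKM in Tbx21-KO and 4.05 and 3.76 FPKM in WT, a log2 fold change of -0.39, and its call was lost without Tbx21-KO 1 (-0.36). Both receptor calls were lost with the T cell gene scaling, with log2 fold changes of -0.17 for Tgfbr2 and -0.037 for Tgfbr1. Skil, which encodes the SMAD repressor SnoN, fell by 0.83. Tgfbr3, the coreceptor betaglycan, and Smad3, a signal transducer, rose by 0.91 and 0.51. After T cell gene scaling, 7 of these 12 genes were higher and 1 was lower, beside 72.6% higher and 4.75% lower over all genes.

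**Figure D2:**
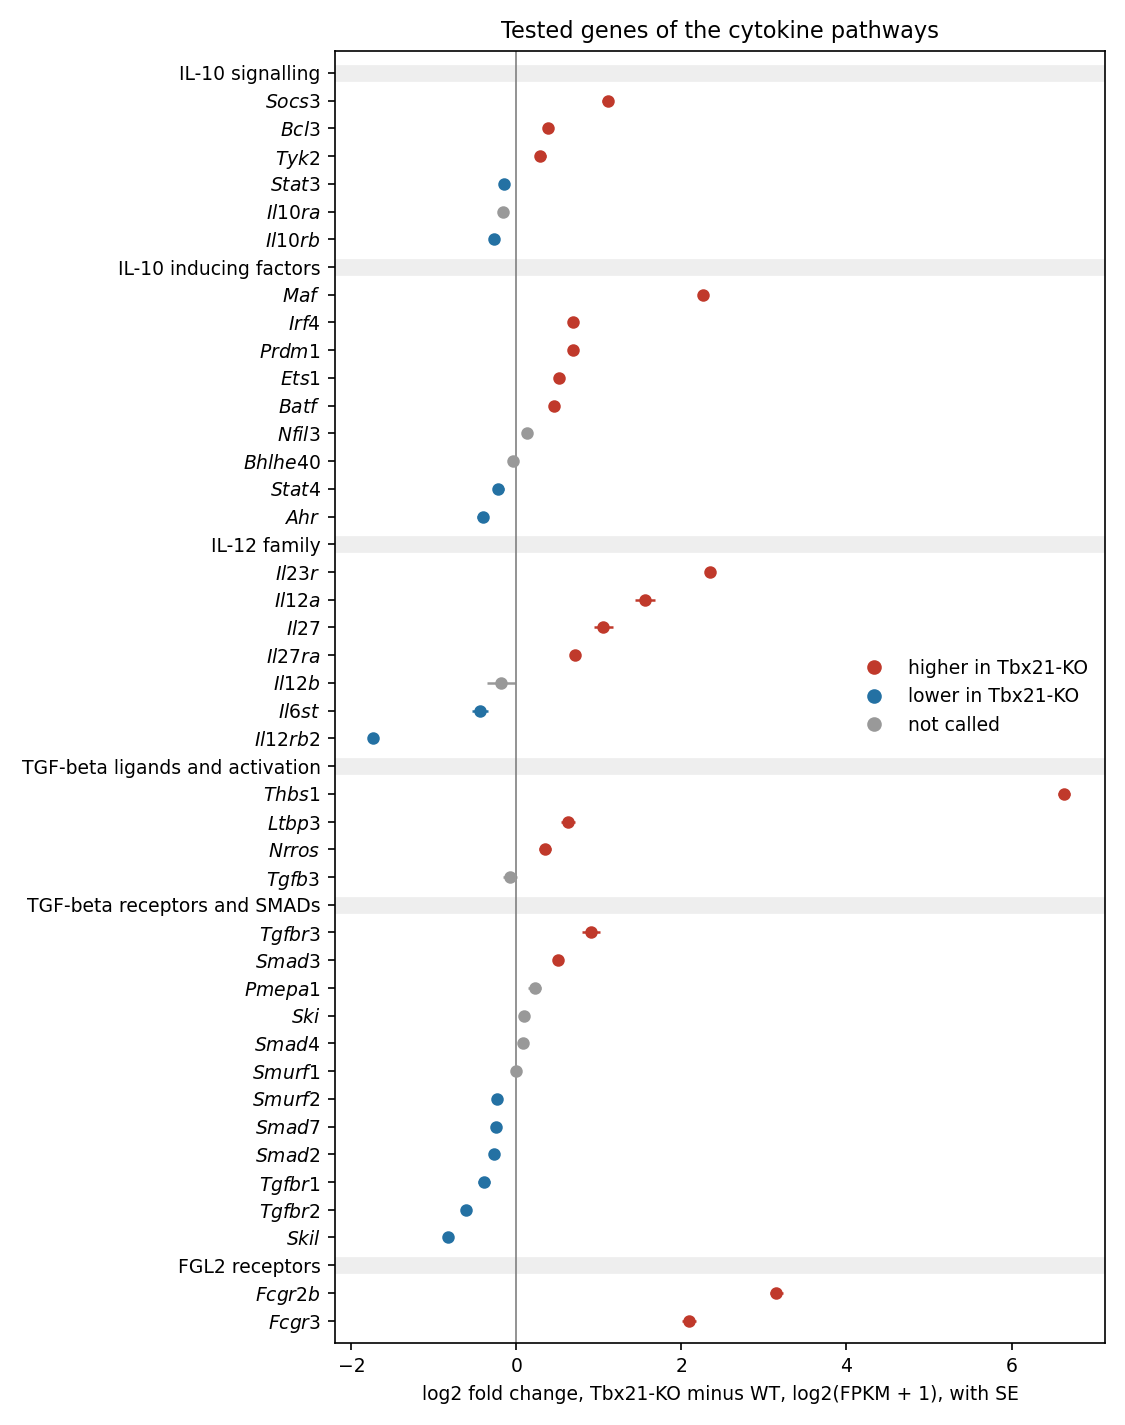
Log2 fold change (Tbx21-KO minus WT, log2(FPKM + 1) scale, x axis) of each tested gene in 6 lists around the members, with the limma standard error as bars; red points are called higher, blue points lower and grey points not called. Thbs1 at 6.64 and Fcgr2b at 3.15 lie farthest to the right and Il12rb2 at -1.73 farthest to the left.

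Foxp3 (ENSMUSG00000039521, a protein-coding gene on GRCm38 chromosome X from 7573644 to 7595245) was low in all 4 libraries. It was at 0.881 and 0.699 FPKM in Tbx21-KO 1 and 2, and at 0.643 and 0.353 FPKM in WT 1 and 2. Both Tbx21-KO values were above both WT values, by less than the difference between the 2 WT libraries. The reads were 94 and 77 in Tbx21-KO and 73 and 39 in WT. Summed over a group, 171 reads in Tbx21-KO have an exact 95% Poisson interval of 146.3 to 198.6 reads and 112 reads in WT one of 92.2 to 134.8 reads. These intervals do not overlap but cover counting error only, not the difference between the 2 WT libraries. At a mean of 0.644 FPKM the gene did not enter the fit, and when genes with a mean of at least 0.1 FPKM were let in, its log2 fold change was 0.26 (limma adjusted p = 0.202). Its exons share 18.6% of their bases with Flicr, 12.9% with Ccdc22, 8.15% with Gm36995 and 5.81% with Ppp1r3f, so that some of these few reads may belong to other genes.

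Ikzf4 (ENSMUSG00000002578, a protein-coding gene on GRCm38 chromosome 10 from 128630843 to 128645991) was well above Foxp3, at 11.7 and 9.84 FPKM in Tbx21-KO 1 and 2 and 7.63 and 7.94 FPKM in WT 1 and 2. Both Tbx21-KO libraries were higher than both WT libraries and differed more from each other than the WT libraries did. The log2 fold change was 0.42, with an SE of 0.09 (limma adjusted p = 0.0152), a 1.38-fold difference of means. The call was lost with no filter on low genes (adjusted p = 0.0566), and the value was larger with the T cell gene scaling (0.83). Both other Ikaros family genes tested, Ikzf3 and Ikzf1, were lower in the deposited values, beside 23.0% of all genes. With the T cell gene scaling Ikzf1 was called higher. Ikzf5 was too low to be tested, at 0.0824 and 0.138 FPKM in Tbx21-KO and 0.224 and 0.152 FPKM in WT. Ikzf3, which encodes Aiolos, was at 8.89 and 7.72 FPKM in Tbx21-KO and 15.7 and 15.7 FPKM in WT, a change of -0.85 on the log2 scale (SE 0.07; limma adjusted p = 0.00086). Ikzf1, which encodes Ikaros, fell by 0.19, a call lost without Tbx21-KO 1 (log2 fold change -0.21) and without Tbx21-KO 2 (-0.18), and its direction turned with the T cell gene scaling (0.26). Ikzf2, which encodes Helios, is not analysed here.

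The wider list of regulatory T cell genes, which includes the ectonucleotidases, had 13 tested genes, of which 6 rose and 5 fell while 2 were not called. They had a median log2 fold change of 0.08. Its share of calls, 11 of 13, stands beside the 53.1% of all genes. Runx1, a factor that binds Foxp3, was at 6.34 and 6.26 FPKM in Tbx21-KO and 1.71 and 1.46 FPKM in WT, a log2 fold change of 1.5. Il2ra, which encodes the IL-2 receptor chain CD25, was at 258.8 and 249.3 FPKM in Tbx21-KO and 139.9 and 137.0 FPKM in WT, a log2 fold change of 0.87. Capg, an actin-capping protein, rose by 0.76. Entpd1 and Nt5e, which encode CD39 and CD73 and make adenosine from ATP in steps, fell by 1.46 and 1.08, and the transcription factor gene Foxo1 fell by 0.93. Of these 6 genes, each was called in the same direction in every alternative fit in which it was tested.

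**Figure D3:**
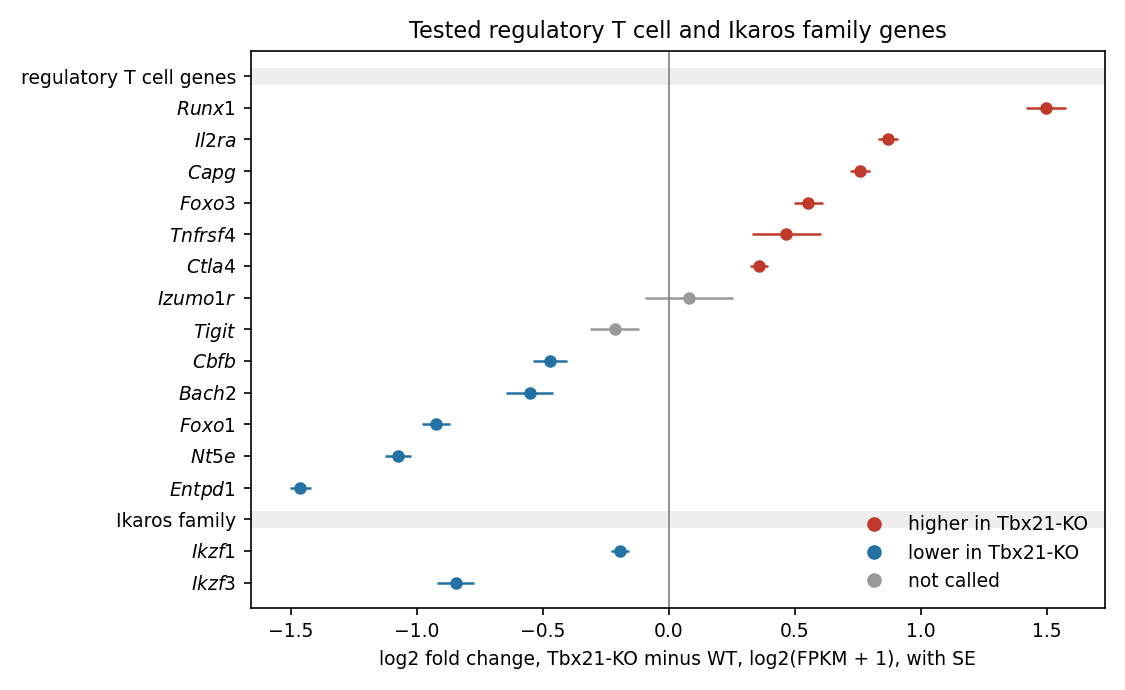
Log2 fold change (Tbx21-KO minus WT, log2(FPKM + 1) scale, x axis) with the limma standard error as bars for the tested regulatory T cell genes and the Ikaros family; red points are called higher, blue points lower and grey points not called. Runx1 at 1.5 and Entpd1 at -1.46 mark the ends of the regulatory T cell list, and Ikzf3 and Ikzf1 lie left of 0.

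FPKM is per length, so the levels of the 8 genes can be ordered within a group. In Tbx21-KO the order was Fgl2 and Tgfb1 at 106.2 and 105.6 FPKM, Ebi3 at 17.3 FPKM, Ikzf4 at 10.8 FPKM, Lrrc32 at 7.78 FPKM, Il10 at 5.47 FPKM, Foxp3 at 0.79 FPKM and Itgb8 at 0.0173 FPKM. Only Fgl2 and Tgfb1 overlapped among these neighbours. In WT the order was Fgl2 at 225.5 FPKM, Tgfb1 at 88.5 FPKM, Il10 at 9.26 FPKM, Ikzf4 at 7.78 FPKM, Lrrc32 at 7.30 FPKM, Ebi3 at 2.65 FPKM, Foxp3 at 0.498 FPKM and Itgb8 at 0.0109 FPKM, and no neighbours overlapped. Ebi3 thus ranked next after Fgl2 and Tgfb1 in Tbx21-KO and next after Lrrc32 in WT, whereas Il10 ranked next after Lrrc32 in Tbx21-KO and next after Tgfb1 in WT. Fgl2 was 0.955 and 1.06 times Tgfb1 in Tbx21-KO and 2.73 and 2.36 times Tgfb1 in WT. The summed level of the 4 soluble suppressors was 233.7 and 235.6 FPKM in Tbx21-KO and 343.3 and 308.5 FPKM in WT, and Fgl2 made up most of that sum in WT.

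**Figure D4:**
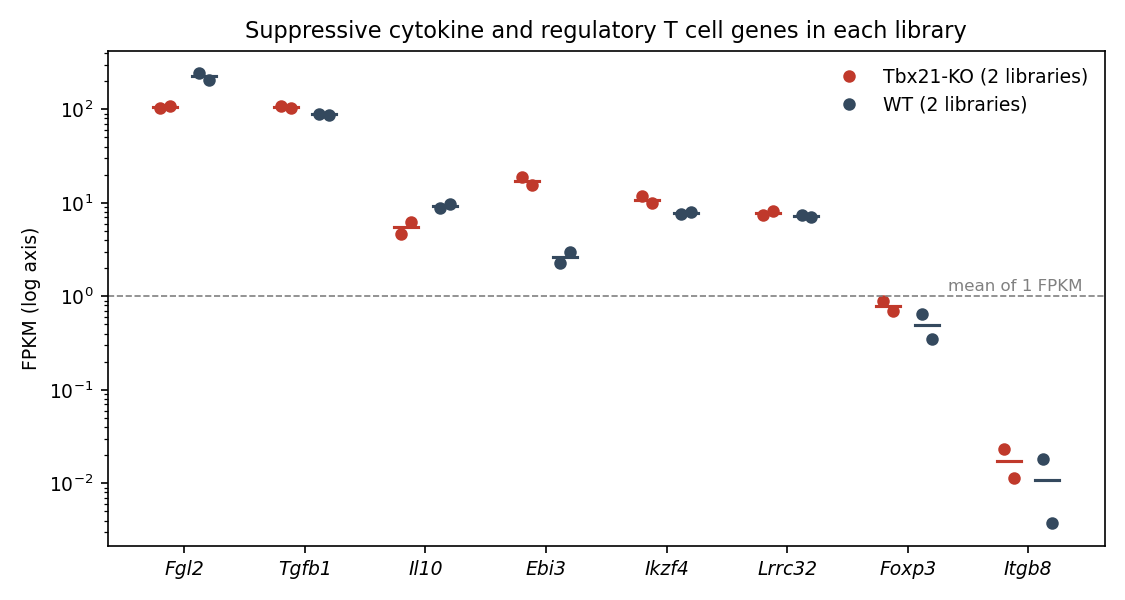
FPKM (log axis) of the 8 genes, 1 point per library with the group mean as a bar, Tbx21-KO in red on the left and WT in dark blue on the right; the dashed line is the mean of 1 FPKM needed for the test. Ebi3 is higher in both Tbx21-KO libraries, Fgl2 and Il10 are lower, and Foxp3 and Itgb8 lie under the line.

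Genes with the most similar levels over the 4 libraries were found by Euclidean distance of log2(FPKM + 1). For Ebi3 these were Maf, Lst1 and Cyp4f16, at distances of 0.30, 0.37 and 0.38. For Fgl2 they were Prf1, which encodes perforin, Tuba1c and Fcer1g, at distances of 0.36, 0.46 and 0.49. Prf1 was at 96.0 and 101.5 FPKM in Tbx21-KO and 195.2 and 196.4 FPKM in WT.

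**Figure D5:**
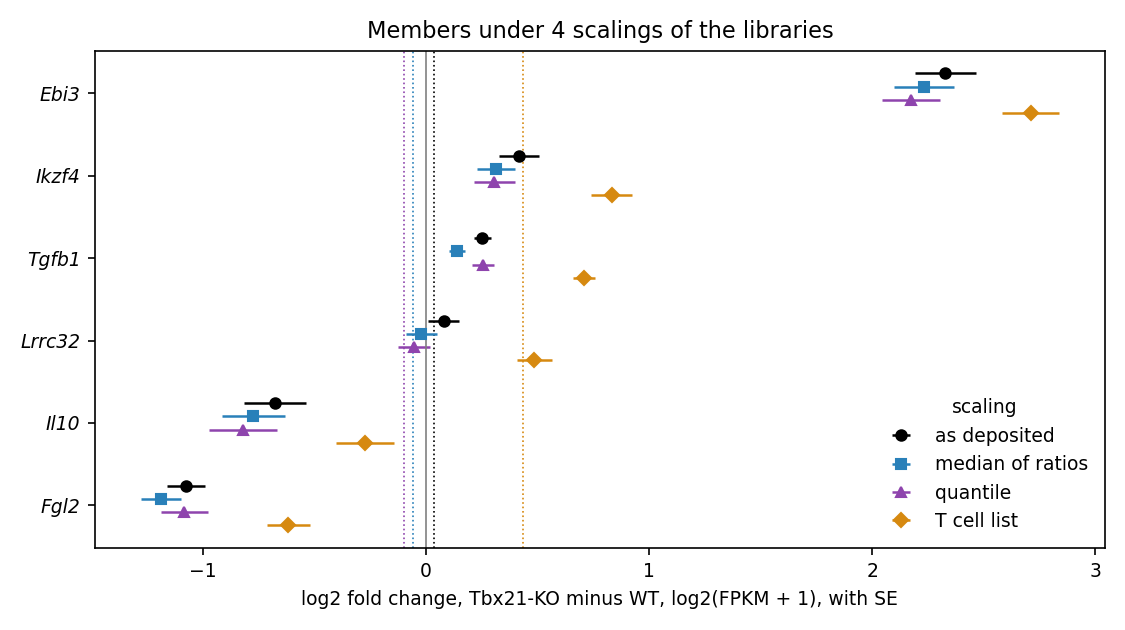
Log2 fold change (Tbx21-KO minus WT, log2(FPKM + 1) scale, x axis) of the 6 tested members under 4 scalings of the libraries, with the limma standard error as bars; dotted lines in the same colours mark the median of all genes tested under each scaling. The T cell gene scaling moves all 6 to the right together with the median, to 0.43, and Ebi3 and Fgl2 stay on their sides of 0 under each scaling.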

How the data were processed

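RNA-seq libraries of 2 Tbx21-KO and 2 WT cDNT preparations were analysed from 1 table of FPKM values, which the authors computed per gene and deposited. RNA was column-purified and made into libraries with an mRNA kit, per the labels' protocols. Per the submitters' processing notes the builds were GRCm38 and mm10. Not given in the sources used here are aligner, counting tool, annotation and strand setting. The table held 24769 rows, the last of which broke off and was left out. Of 24768 genes, 24720 matched GENCODE release M21 (GRCm38).

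Reads behind the FPKM values were estimated from annotated exon lengths: below 20 reads, between 96.8% and 97.3% of a library's values were whole within 0.1 read, and 1 read in 2 kb of exon is worth 0.02 to 0.0214 FPKM. These totals need not be the full depth.

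The comparison was fitted over all genes with limma 3.58.1 in R 4.3.3 on log2(FPKM + 1). It used a variance trend, a mean of at least 1 FPKM and Benjamini-Hochberg adjustment. The fit was also run on simulated data, but the outcome is not reported here and no conclusion is drawn from it. No separate cultures or animals are named, so p-values measure the spread among 4 libraries, possibly a technical one. The pairs differed by more than counting noise (median chi-square per gene 1.21 in Tbx21-KO and 1.31 in WT). An exact permutation test of 2 against 2 libraries has a smallest two-sided p of 0.33 and was not used. Alternatives were other pseudocounts, filters and scalings, no trend, a replicate block, each library left out, and voom on the estimated reads. The T cell gene scaling sets the 17 genes of the T cell receptor complex list to an equal mean log2 level in every library. These genes did not change alike in the deposited values: 12 were lower, 4 not called and 1 higher. Their log2 fold changes ran from -1.41 (Cd28) to 0.53 (Cd5), so the scaling averages unlike changes. The members, lists and tests were chosen with earlier results of these data known. Text names all members, their fixed partner genes, genes among the 3 largest called rises and falls of a list, and the 3 genes nearest in level to the members with the largest rise and fall.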

Additional observations from a re-analysis of the deposited data

How the results depend on the processing

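Of 99 alternative values for the 8 genes, 93 kept their direction and their side of the threshold. Other filters, no trend and a replicate block leave the log2 fold change of a gene as it is. In these settings only the call could change, so the kept direction carries no information. All alternative values of Itgb8 and Foxp3 are of this kind. Ebi3, Fgl2 and Tgfb1 were called in the same direction in all 16 alternatives, with log2 fold changes from 1.54 to 2.71, from -1.19 to -0.62 and from 0.14 to 0.71. With no filter, Il10 (-0.68, adjusted p = 0.0589) and Ikzf4 (0.42, adjusted p = 0.0566) lost their calls, which left 2 genes of the 8 higher and 1 lower. With the T cell gene scaling Il10 was not called (-0.27), Lrrc32 was called higher (0.49), and 4 were higher and 1 lower. Lrrc32 turned to -0.0198 with median-of-ratios scaling and to -0.0541 with quantile normalization, uncalled in both. The T cell gene scaling turned Il10ra (0.27), Il10rb (0.12), Stat3 (0.30), Stat4 (0.21) and Ikzf1 (0.26). Over all genes, 7994 were higher and 523 lower with that scaling, 3801 were lower after quantile normalization, and 2018 were higher at a mean of at least 5 FPKM, where 7032 genes were tested. The share of calls that were higher was 56.7% with the deposited values, 43.0% with median-of-ratios scaling, 39.1% after quantile normalization and 93.9% with the T cell gene scaling. Quantile normalization moved the median of all genes by -0.14. The cause of these differences was not tested. Without 1 library, 2391 to 3036 genes were higher and 1726 to 2225 lower, and 3 of the 8 genes were higher and 2 lower each time. Same-numbered libraries did not deviate together (correlation -0.02), so the numbers gave no sign of a pairing, though 1 correlation over all genes cannot exclude one. With a replicate block 3245 genes were higher and 2482 lower, and 3 of the 8 genes were higher and 2 lower. Depth limits Itgb8, which rests on 9 reads in Tbx21-KO and 6 reads in WT.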
